A study of Mus musculus with 8 samples.

Results

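The genes described here are 41 genes of DNA replication and of the G1/S step of the cell cycle, measured by RNA sequencing in mechanically scraped mouse back-skin epidermis. They were taken as a list of symbols, and each matched 1 of the 54232 Ensembl gene identifiers in every library. All 41 were protein coding, and all 41 passed the filter on low counts that left 19251 genes for testing. The mice were female, REDD1 knockout (KO) or wild type (WT), in the same F1 C57Bl x 129 background. REDD1 is the product of Ddit4; stress raises it, and it holds back the growth kinase complex mTORC1. The 6 groups were KO and WT skin given 2 ug of the glucocorticoid fluocinolone acetonide (FA) and then 4 ug of the phorbol ester TPA 1 h later (1 library per genotype), KO and WT skin given 4 ug of TPA alone (1 library per genotype), and KO and WT skin given the acetone vehicle, 200 ul (2 libraries per genotype). All the skin was shaved, and treated skin was taken 24 h after TPA. The age of the mice, the kind of knockout allele and whether a library came from 1 animal or a pool are not stated in these sources. Treated groups had no replicate within a genotype, and p-values rest on the variation among these samples alone, which may be technical.

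Replication starts when the origin recognition complex, Cdc6 and Cdt1 load the Mcm2 to Mcm7 ring onto DNA in G1. In S phase the ring becomes an active helicase with Cdc45 and the GINS proteins, and the polymerases follow on the sliding clamp Pcna, which the Rfc loader closes around DNA. Cyclin E with its kinase and the E2F transcription factors control entry into S phase, and many replication genes are classical E2F targets. TPA is a tumour promoter that drives keratinocyte proliferation and inflammation in mouse skin, and topical glucocorticoids are known for holding both back.

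Promoter sequences are shown because E2F binding words are the feature these genes are best known to share. The RefSeq promoter table (GRCm38.p6) held 33 of the 41 genes, and the 250 bases before each start were searched on both strands. The E2F words searched were TTTGGCGC, TTTCCCGC, TTTGCCGC and TTTCGCGC. At least 1 of them was found for 11 of the 33 genes (33.3%), against 583 of 27025 genes in the whole table (2.16%). These 11 were Orc1, Cdc6, Mcm5, Mcm6, Mcm7, Gins3, Rfc3, Pola1, Hells, Uhrf1 and Dnmt1. In the 6 promoters below, capitals mark E2F words (8 letters, or longer where matches overlap) and CCAAT boxes (CCAAT or its reverse complement). Mcm5 (chr8:75109259-75109508, plus strand) held 2 overlapping E2F words, starting 153 and 149 bases before the start. Mcm6 (chr1:128359706-128359955, minus strand) held 3, starting 110, 106 and 47 bases before the start. Orc1 (chr4:108579204-108579453, plus strand) held 1, starting 27 bases before the start. No E2F word was found in the windows shown for Rrm2 (chr12:24708004-24708253, plus strand), E2f2 (chr4:136172024-136172273, plus strand) or Uhrf1 (chr17:56303087-56303336, plus strand, 1 of 2 windows listed for that gene). Each of the 6 held a CCAAT box.
Mcm5: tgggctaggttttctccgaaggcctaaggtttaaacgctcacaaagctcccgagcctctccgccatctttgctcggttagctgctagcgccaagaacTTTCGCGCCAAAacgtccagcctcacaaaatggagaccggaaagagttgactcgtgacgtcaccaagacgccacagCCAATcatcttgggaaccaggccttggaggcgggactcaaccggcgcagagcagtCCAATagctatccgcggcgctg
Mcm6: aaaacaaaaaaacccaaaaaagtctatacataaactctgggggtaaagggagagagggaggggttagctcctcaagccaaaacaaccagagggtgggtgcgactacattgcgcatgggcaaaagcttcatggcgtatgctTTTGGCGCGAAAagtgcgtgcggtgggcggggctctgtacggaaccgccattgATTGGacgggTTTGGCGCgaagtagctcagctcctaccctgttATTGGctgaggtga
Orc1: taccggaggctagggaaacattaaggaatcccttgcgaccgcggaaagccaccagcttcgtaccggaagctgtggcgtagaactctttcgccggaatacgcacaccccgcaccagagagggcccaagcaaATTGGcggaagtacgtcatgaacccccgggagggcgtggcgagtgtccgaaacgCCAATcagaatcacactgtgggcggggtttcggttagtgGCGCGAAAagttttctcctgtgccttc
Rrm2: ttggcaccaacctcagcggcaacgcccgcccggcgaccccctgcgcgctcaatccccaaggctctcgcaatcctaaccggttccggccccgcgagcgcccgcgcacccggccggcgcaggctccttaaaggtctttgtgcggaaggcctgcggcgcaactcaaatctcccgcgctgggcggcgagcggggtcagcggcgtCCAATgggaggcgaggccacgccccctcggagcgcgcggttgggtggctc
E2f2: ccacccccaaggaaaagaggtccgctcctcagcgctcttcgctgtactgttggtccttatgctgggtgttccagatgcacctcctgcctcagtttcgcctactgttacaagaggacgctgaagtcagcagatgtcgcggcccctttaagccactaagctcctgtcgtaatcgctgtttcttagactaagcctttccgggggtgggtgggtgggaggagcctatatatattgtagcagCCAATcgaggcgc
Uhrf1: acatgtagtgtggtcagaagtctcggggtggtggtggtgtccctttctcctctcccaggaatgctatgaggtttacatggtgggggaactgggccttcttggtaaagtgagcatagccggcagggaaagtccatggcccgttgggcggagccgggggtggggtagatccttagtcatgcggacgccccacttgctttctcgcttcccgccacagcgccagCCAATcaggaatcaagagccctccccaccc
A match is only a run of letters, and at the threshold used it did not separate genes called with TPA, described next, from the others. Mcm5 and Orc1 rose with TPA and carry E2F words. Rrm2 had a larger fitted rise than either, with none in its window. Mcm6, with the most E2F words of the 33 genes, did not pass the test with TPA. An E2F word was found for 6 of 17 genes called higher with TPA (35.3%) and for 5 of 16 not called higher (31.2%). Of those 5, Hells (0.38 log2), Gins3 (0.41) and Pola1 (0.23) were above 0 at an unadjusted edgeR p under 0.05. Mcm6 (0.08) and Rfc3 (-0.19) were not, so these shares depend on the threshold. CCAAT boxes were found for 19 of 33 genes (57.6%), against 37.5% of all genes in the table. The paired half-site word ACANNNTGT of steroid receptors was found for 2 of 33 (6.06%), against 6.76% of all genes.

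Library totals ranged from 16874233 to 22560098 counts, so a count of 0 allows a level of up to 3 counts, equal to 0.133 to 0.178 CPM (counts scaled to library size). The noncoding gene Gm26917 took 16.77 to 24.21% of counts in treated libraries and 8.34 to 13.83% in vehicle libraries. Ddit4 was measured at 4.44 to 18.8 normalised CPM in the 4 KO libraries and at 64.2 to 128 in the 4 WT libraries. The 41 genes had between 8 and 3910 counts per library. Their summed normalised CPM was 1130 (KO) and 1180 (WT) with FA+TPA, 1300 (KO) and 1280 (WT) with TPA, 934 and 947 in KO vehicle skin, and 948 and 973 in WT vehicle skin. The sum was thus highest in both TPA libraries, lower in both FA+TPA libraries and lowest in vehicle skin of either genotype. Per kilobase of exon, Dnmt1 had the highest mean level in vehicle skin, 18.3 CPM per kb, and Fen1 the lowest, 0.396 CPM per kb. The antisense gene Gm10143 overlaps 78.8% of Fen1 exon sequence. The strand setting of the counting is not given, so the Fen1 value may be too low. In these bulk samples a change in the number of cycling cells and a change in RNA per cell cannot be told apart.

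**Figure D1:**
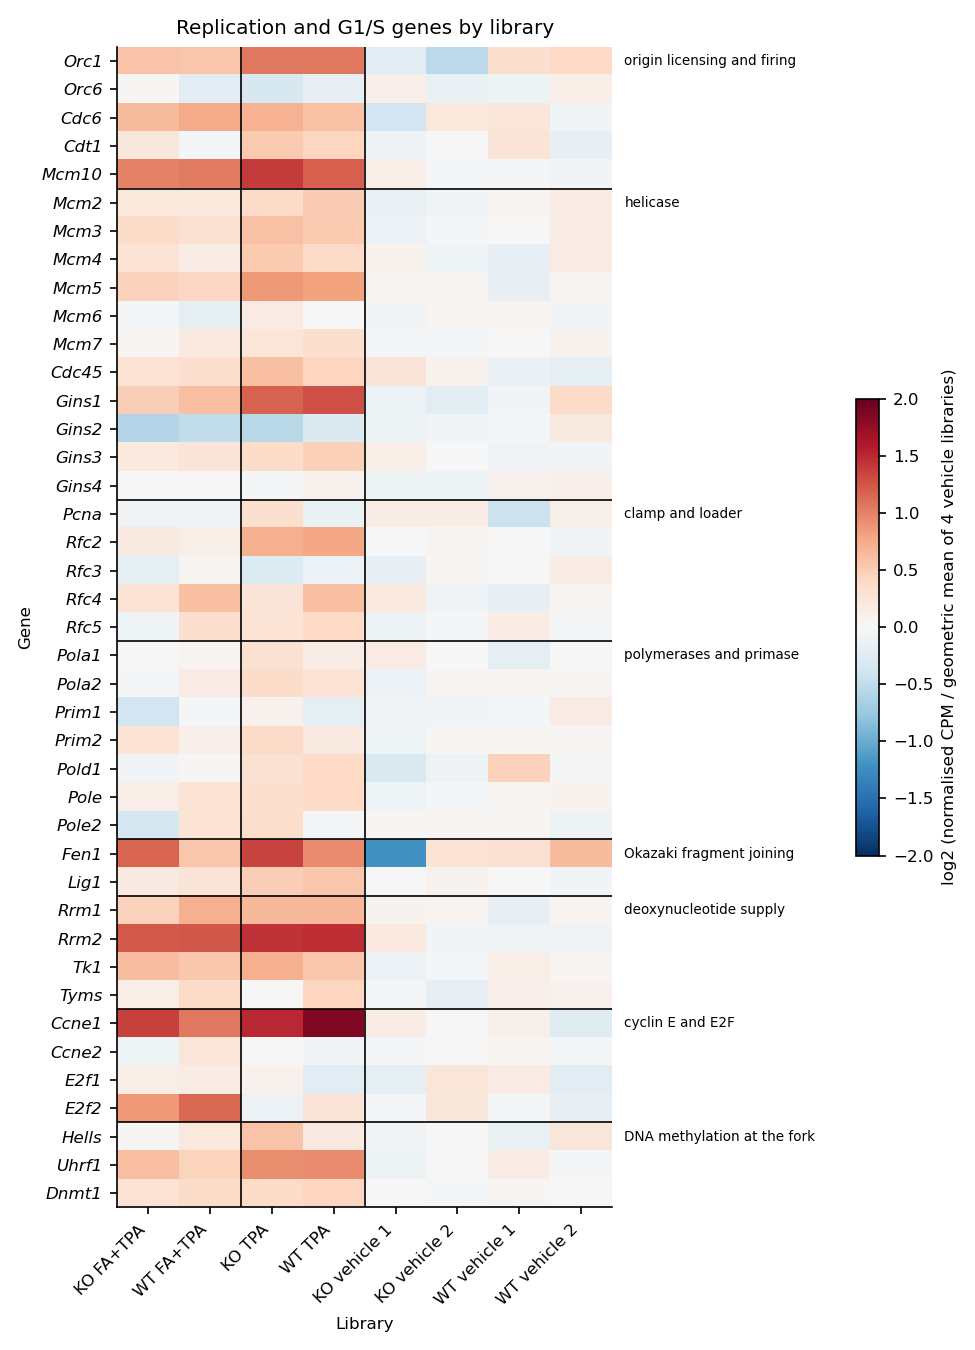
Normalised CPM of each of the 41 genes (down the page, grouped by role) in each of the 8 libraries (across), as the log2 ratio to the geometric mean of the 4 vehicle libraries. Mcm10, Rrm2 and Ccne1 are high in all 4 treated libraries, while E2f2 is high only in the FA+TPA libraries.

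TPA was compared with vehicle over both genotypes to show the response that FA precedes. With TPA, 21 of the 41 genes rose, 1 (Gins2) fell and 19 did not pass the test (edgeR quasi-likelihood test, adjusted p under 0.05). Over all genes tested, 23.2% rose and 22.8% fell. The median log2 fold change of the 41 was 0.41, against -0.03 over all genes, and 35 of 41 were above 0. Both TPA libraries stood above all 4 vehicle libraries for 26 of 41 genes, an order found for 28.0% of all genes tested. Across the roles, 4 of 5 licensing and firing genes, 7 of 11 helicase genes, 2 of 5 clamp and loader genes, 1 of 7 polymerase and primase genes, 1 of 2 Okazaki fragment genes, 3 of 4 deoxynucleotide genes, 1 of 4 cyclin E and E2F genes and 2 of 3 genes of DNA methylation at the fork rose. Calls for 7 of the 21 were lost without the KO TPA library (Cdc6, Cdt1, Mcm4, Mcm7, Cdc45, Rfc5 and Pole), with adjusted p between 0.0508 for Pole and 0.183 for Rfc5. Without the WT TPA library 4 of these 7 were lost (Cdc45, Cdt1, Mcm7 and Rfc5, adjusted p 0.0708 to 0.111), without KO vehicle replicate 1 Cdt1 (0.0596) and Rfc5 (0.066), and without WT vehicle replicate 2 Rfc5 (0.053). Without normalisation for composition, which lowers the median of all genes by 0.226 log2, 12 genes rose and 3 fell.

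Among the licensing and firing genes, Mcm10, a factor that helps the loaded helicase to open, was measured at 14.9 (KO) and 12.9 (WT) normalised CPM with TPA, against 6.19 and 5.54 in KO vehicle skin and 5.48 and 5.43 in WT vehicle skin. Both TPA libraries were more than double any vehicle library, a log2 fold change of 1.30 ± 0.13 (SE, adjusted p = 1.82e-05). Orc1, the subunit of the origin recognition complex whose level follows the cell cycle, was at 7.32 (KO) and 7.33 (WT) CPM with TPA, against 3.05 and 2.45 in KO vehicle skin and 4.41 and 4.66 in WT vehicle skin. The 2 TPA values were alike and above all vehicle values, which were lower in KO than in WT (log2 fold change with TPA 1.05 ± 0.21, adjusted p = 0.00189). Cdc6 and Cdt1, the loaders of the Mcm ring, rose by 0.62 ± 0.17 and 0.46 ± 0.14 log2, and Orc6 (-0.24 ± 0.14) did not pass the test.

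Of the helicase, Mcm5 was at 68.5 (KO) and 65.6 (WT) CPM with TPA, against 39.4 and 39.1 in KO vehicle skin and 33.7 and 39.1 in WT vehicle skin. Its TPA values were far above every vehicle value (log2 fold change 0.82 ± 0.09, adjusted p = 2.51e-05). The other ring subunits moved less: Mcm2, Mcm3, Mcm4 and Mcm7 rose by between 0.28 (Mcm7) and 0.56 (Mcm3) log2, and Mcm6 gave 0.08 ± 0.09 (adjusted p = 0.455). Gins1, a subunit of the GINS complex that activates the ring, was at 7.0 (KO) and 7.58 (WT) CPM with TPA, against 2.86 and 2.68 in KO vehicle skin and 3.00 and 4.03 in WT vehicle skin. Both TPA libraries exceeded all vehicle libraries (1.22 ± 0.18 log2, adjusted p = 0.00024). Its partner Gins2 went the other way, at 5.30 (KO) and 6.35 (WT) CPM with TPA, against 7.22 and 7.49 in KO vehicle skin and 7.63 and 8.79 in WT vehicle skin. That difference was -0.42 ± 0.15 log2 (adjusted p = 0.0377), and the call ended in 7 of 8 fits that left out a library, with adjusted p up to 0.289 without the KO TPA library, and in DESeq2 (adjusted p = 0.135). Exons of Gse1 on the opposite strand overlap 67.3% of Gins2 exon sequence, so the reads of the pair may not be separable. The other GINS members gave 0.41 ± 0.17 (Gins3) and 0.02 ± 0.11 (Gins4), neither past the threshold.

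In the clamp and its loader, Rfc2, a loader subunit, was at 33.8 (KO) and 35.1 (WT) CPM with TPA, against 20.6 and 21.5 in KO vehicle skin and 20.7 and 19.8 in WT vehicle skin. The vehicle libraries lay within 2 CPM of each other and both TPA libraries stood clear of them (0.74 ± 0.09 log2, adjusted p = 9.36e-05). Rfc5 was at 21.7 (KO) and 23.5 (WT) CPM with TPA, against 16.6 and 17.6 in KO vehicle skin and 19.8 and 17.6 in WT vehicle skin, without overlap (0.34 ± 0.11, adjusted p = 0.0297). Pcna, often used as a proliferation marker, was at 33.9 (KO) and 24.8 (WT) CPM with TPA, against 30.0 and 30.1 in KO vehicle skin and 20.2 and 29.5 in WT vehicle skin. Its groups overlapped, and the difference of 0.09 ± 0.15 log2 did not pass the test (adjusted p = 0.641).

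The polymerases moved little. Pole, the catalytic subunit of the leading-strand polymerase, was at 39.9 (KO) and 42.1 (WT) CPM with TPA, against 29.9 and 31.0 in KO vehicle skin and 33.2 and 33.6 in WT vehicle skin (0.36 ± 0.08 log2, adjusted p = 0.00458), with no overlap. Pola2, a subunit of the polymerase that carries primase, was at 16.0 (KO) and 15.0 (WT) CPM with TPA, against 11.5 and 13.0 in KO vehicle skin and 12.8 and 12.6 in WT vehicle skin. Its groups did not overlap, yet the difference of 0.31 ± 0.12 log2 missed the threshold (adjusted p = 0.0524). Lig1, the ligase that seals Okazaki fragments, was at 43.3 (KO) and 45.1 (WT) CPM with TPA, against 30.4 and 32.1 in KO vehicle skin and 30.5 and 29.6 in WT vehicle skin (0.53 ± 0.09 log2, adjusted p = 0.000564). Fen1, the flap nuclease of the same step, had few counts, at 2.20 (KO) and 1.66 (WT) CPM with TPA, against 0.375 and 1.04 in KO vehicle skin and 1.07 and 1.34 in WT vehicle skin. Its difference of 1.04 ± 0.40 log2 was not called (adjusted p = 0.0565), and the antisense gene Gm10143 overlaps 78.8% of its exon sequence.

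For deoxynucleotide supply, Rrm2, the S-phase subunit of ribonucleotide reductase, had the smallest p of the 41 genes. It was at 46.8 (KO) and 47.8 (WT) CPM with TPA, against 19.6 and 16.6 in KO vehicle skin and 16.4 and 16.3 in WT vehicle skin (1.46 ± 0.10 log2, adjusted p = 1.53e-06). Its partner subunit Rrm1 was at 95.1 (KO) and 96.0 (WT) CPM with TPA, against 63.1 and 62.7 in KO vehicle skin and 53.6 and 62.6 in WT vehicle skin (0.66 ± 0.10 log2, adjusted p = 0.000344). For both, the 2 TPA libraries were alike and above all vehicle libraries. Thymidine kinase Tk1 rose by 0.63 ± 0.10 log2, and thymidylate synthase Tyms (0.21 ± 0.11, adjusted p = 0.13) did not pass the test.

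Ccne1, encoding cyclin E1, had the largest fold change of the 41 genes, at 5.57 (KO) and 7.03 (WT) CPM with TPA, against 2.16 and 1.95 in KO vehicle skin and 2.09 and 1.66 in WT vehicle skin (1.67 ± 0.20 log2, adjusted p = 6.81e-05). Cyclin E2, E2f1 and E2f2 lay between -0.07 (E2f1) and 0.07 (E2f2) log2, with adjusted p between 0.736 (E2f2) and 0.902 (Ccne2). Uhrf1, which recognises half-methylated DNA behind the fork, was at 60.0 (KO) and 60.4 (WT) CPM with TPA, against 29.4 and 31.1 in KO vehicle skin and 34.7 and 30.7 in WT vehicle skin (0.94 ± 0.09 log2, adjusted p = 1.95e-05). Dnmt1, the maintenance DNA methyltransferase that Uhrf1 recruits, was at 176 (KO) and 182 (WT) CPM with TPA, against 135 and 131 in KO vehicle skin and 138 and 136 in WT vehicle skin (0.41 ± 0.07 log2, adjusted p = 0.00117). In all 3 genes that rose, both TPA libraries lay above every vehicle library.

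**Figure D2:**
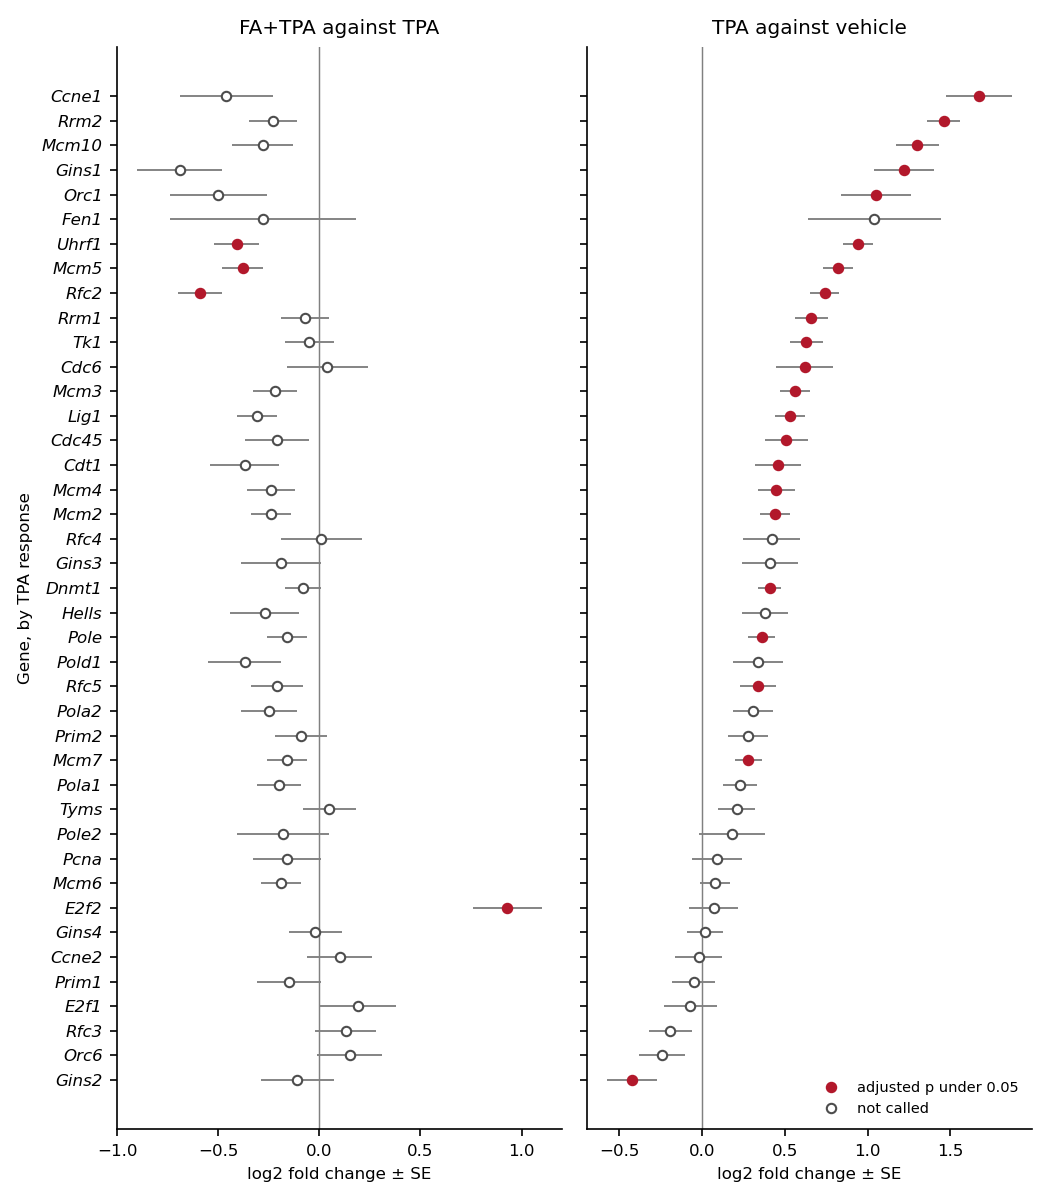
Fitted log2 fold change with its SE for each of the 41 genes, for FA+TPA against TPA (left) and TPA against vehicle (right), with genes down the page by the size of the TPA response. Filled points passed the test: 4 on the left, with E2f2 alone above 0, and 22 on the right, with Gins2 alone below 0.

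FA+TPA was then compared with TPA, to ask how the glucocorticoid alters these genes; this comparison shares its TPA libraries with the one above. Over both genotypes, E2f2 rose, Rfc2, Mcm5 and Uhrf1 fell, and 37 of 41 genes did not pass the test. Of all genes tested, 5.71% rose and 4.31% fell, so counts of 1 and 3 of 41 are near what the shares over all genes give. The median log2 fold change was -0.19, against 0.01 over all genes, and 33 of 41 genes were below 0. At an unadjusted p under 0.05, 7 genes were lower and 1 was higher. The share of all genes at that unadjusted threshold was not computed, for these counts or for the unadjusted counts given below. Both FA+TPA libraries lay below both TPA libraries for 22 of 41 genes, an order found for 25.4% of all genes tested, and above both for 2 of 41, found for 27.4% of all genes.

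E2f2, an E2F family activator, was at 40.1 (KO) and 49.0 (WT) CPM with FA+TPA, against 20.4 (KO) and 26.4 (WT) with TPA. It was at 21.6 and 25.7 in KO vehicle skin and at 21.6 and 19.7 in WT vehicle skin, so that both FA+TPA libraries stood apart from the other 6, which overlapped. The difference from TPA was 0.93 ± 0.17 log2 (adjusted p = 0.00544). It kept its direction but not its call without the KO TPA library (0.71, adjusted p = 0.0892) and without the WT FA+TPA library (0.75, adjusted p = 0.131).

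Rfc2 was at 23.5 (KO) and 22.3 (WT) CPM with FA+TPA, against 33.8 (KO) and 35.1 (WT) with TPA, which left it close to the vehicle levels of 19.8 to 21.5 given above. The difference from TPA was -0.59 ± 0.11 log2 (adjusted p = 0.00698), and the call ended without the KO FA+TPA library (adjusted p = 0.0624), the WT FA+TPA library (0.0975) or the WT TPA library (0.0813). Lat2, a gene on the opposite strand that overlaps 15.1% of Rfc2 exon sequence, had 45 (KO) and 61 (WT) counts with FA+TPA, 80 (KO) and 54 (WT) with TPA, and between 52 and 83 in vehicle skin. Mcm5 was at 52.2 (KO) and 50.4 (WT) CPM with FA+TPA, against 68.5 (KO) and 65.6 (WT) with TPA, and both FA+TPA libraries lay between TPA and vehicle (-0.38 ± 0.10 log2, adjusted p = 0.0359). Uhrf1 was at 47.8 (KO) and 43.0 (WT) CPM with FA+TPA, against 60.0 (KO) and 60.4 (WT) with TPA, again between TPA and vehicle (-0.41 ± 0.11 log2, adjusted p = 0.0423). For Mcm5 and Uhrf1 the call ended without any 1 of the treated libraries or of the KO vehicle libraries. The adjusted p then lay between 0.0591 and 0.21 for Mcm5 and between 0.0576 and 0.356 for Uhrf1, and all fold changes stayed below 0.

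**Figure D3:**
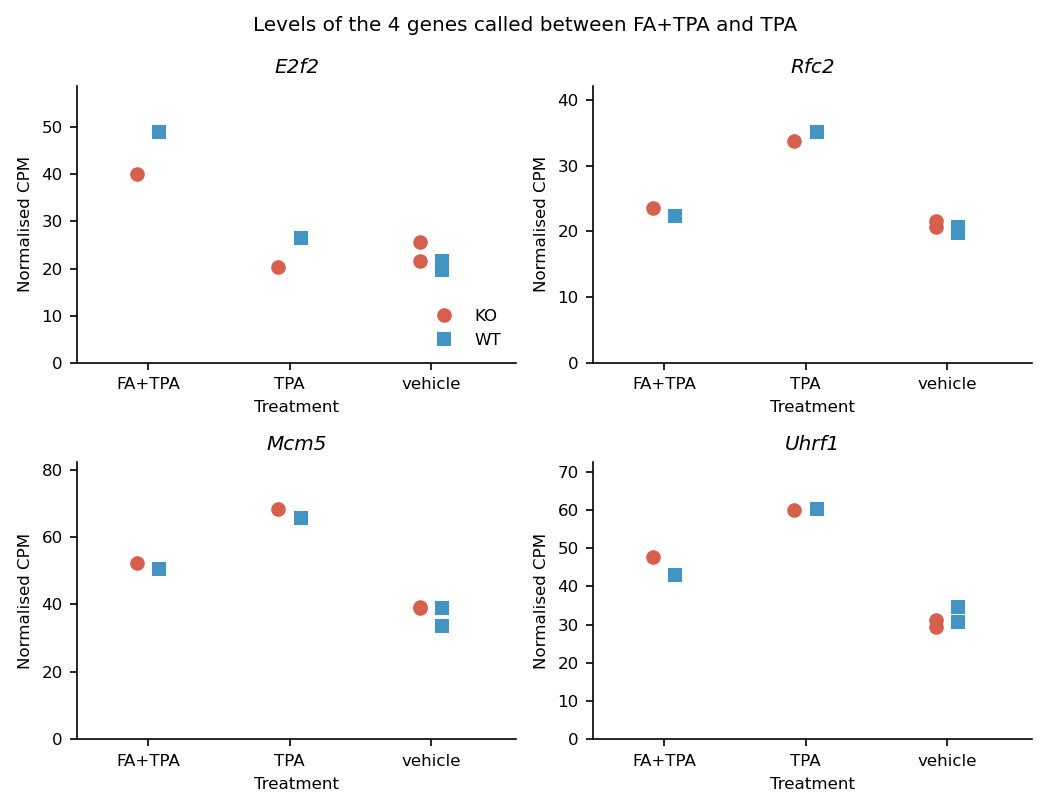
Normalised CPM of E2f2, Rfc2, Mcm5 and Uhrf1 in each library (points; KO circles, WT squares) by treatment. E2f2 is at 40.1 and 49.0 with FA+TPA, above every other library, while Rfc2, Mcm5 and Uhrf1 are lower with FA+TPA than with TPA in both genotypes.

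Of the genes that did not pass the test, Gins1 had the lowest fold change, at 4.35 (KO) and 4.71 (WT) CPM with FA+TPA, against 7.0 (KO) and 7.58 (WT) with TPA (-0.69 ± 0.21 log2, adjusted p = 0.0639). Without WT vehicle replicate 2 it passed (-0.70, adjusted p = 0.0354). All 11 helicase genes and all 7 polymerase and primase genes were below 0, with medians of -0.21 and -0.18 log2. Lig1 was at 34.6 (KO) and 36.8 (WT) CPM with FA+TPA, against 43.3 (KO) and 45.1 (WT) with TPA (-0.31 ± 0.10, adjusted p = 0.0884). The deoxynucleotide genes lay nearer 0. Rrm2 was at 40.0 (KO) and 40.8 (WT) CPM with FA+TPA, against 46.8 (KO) and 47.8 (WT) with TPA (-0.23 ± 0.12, adjusted p = 0.27), and Rrm1 was at 83.3 (KO) and 98.8 (WT), against 95.1 (KO) and 96.0 (WT) (-0.07 ± 0.12). Tk1 gave -0.05 ± 0.12 and Cdc6 gave 0.04 ± 0.20.

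The level left with FA+TPA was also set against vehicle. This comparison and the one of TPA with vehicle share the vehicle libraries. With FA+TPA, 11 of the 41 genes rose, 1 (Gins2) fell and 29 did not pass the test, against 17.4% of all genes that rose and 14.2% that fell. The median was 0.21 log2, against -0.01 over all genes. Both FA+TPA libraries stood above all 4 vehicle libraries for 22 of 41 genes, an order found for 24.7% of all genes. The 11 were E2f2 and 10 of the 21 genes called with TPA, namely Mcm10, Cdc6, Mcm3, Mcm5, Rrm1, Rrm2, Tk1, Ccne1, Uhrf1 and Dnmt1. Rrm2 gave 1.23 ± 0.10 (adjusted p = 1.29e-05) and Ccne1 1.22 ± 0.21 (adjusted p = 0.00143). Mcm10, at 11.3 (KO) and 11.6 (WT) CPM with FA+TPA, gave 1.02 ± 0.13 (adjusted p = 0.000251), and E2f2 gave 1.00 ± 0.14 (adjusted p = 0.000386). The other 11 genes called with TPA were not called here, among them Orc1, at 5.25 (KO) and 5.15 (WT) CPM with FA+TPA (0.55 ± 0.22, adjusted p = 0.0795), and Rfc2 (0.15 ± 0.10, adjusted p = 0.271). Gins2 was at 5.19 (KO) and 5.53 (WT) CPM with FA+TPA, below every vehicle library (-0.54 ± 0.15, adjusted p = 0.0215). Without the KO FA+TPA library 6 genes rose, the calls of Cdc6, Mcm3, Ccne1, Uhrf1 and Dnmt1 ending at adjusted p between 0.0519 and 0.235. Without the WT FA+TPA library 6 rose as well, those of Cdc6, Mcm3, Mcm5, Rrm1 and Dnmt1 ending at 0.0654 to 0.148. Gins2 was called in neither case (0.112 and 0.192), and Mcm3 was also not called without KO vehicle replicate 1 (0.0633).

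Within each genotype, FA+TPA was compared with TPA as a ratio of 1 library to 1 library, with exact 95% intervals that cover counting error only and no p-value. In KO skin, 34 of 41 genes were below 0 and the median log2 ratio was -0.20 (0.00 over all genes). In WT skin, 30 of 41 were below 0 and the median was -0.10 (0.03 over all genes). Over all genes tested, KO FA+TPA was below KO TPA for 50.1% and WT FA+TPA below WT TPA for 47.4%. The counting interval lay below 0 for 26 genes and above 0 for 2 in KO skin, and below 0 for 14 and above 0 for 2 in WT skin. The share of all genes with such intervals was not computed. These counts, and those for both genotypes below, therefore cannot be read as particular to the 41 genes. Both ratios, before rounding, were below 0 for 27 genes and above 0 for 4, while 7 were below 0 in KO and above 0 in WT and 3 the other way round. Tk1 counts as below 0 in WT although its ratio rounds to 0. In 13 genes the interval lay below 0 in both genotypes, and E2f2 was the single gene with it above 0 in both. E2f2 gave 0.97 (0.80 to 1.15) in KO and 0.89 (0.72 to 1.07) in WT. Rfc2 gave -0.53 (-0.71 to -0.35) in KO and -0.65 (-0.85 to -0.46) in WT. Mcm5 gave -0.39 (-0.51 to -0.27) in KO and -0.38 (-0.51 to -0.24) in WT, and Gins1 gave -0.69 in each.

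Some genes had unlike ratios in the 2 genotypes. Pole2, an accessory subunit of polymerase epsilon, was at 4.71 CPM with FA+TPA and 7.59 with TPA in KO skin, and at 7.19 with FA+TPA and 5.79 with TPA in WT skin. Its ratio was -0.69 (-1.09 to -0.29) in KO and 0.31 (-0.10 to 0.72) in WT. Prim1, the catalytic primase subunit, was at 17.1 CPM with FA+TPA and 23.5 with TPA in KO skin, and at 21.8 with FA+TPA and 19.3 with TPA in WT skin. Hells, a chromatin remodeller needed for DNA methylation, was at 24.8 CPM with FA+TPA and 36.3 with TPA in KO skin, and at 28.3 with FA+TPA and 27.6 with TPA in WT skin. All 3 were lower with FA+TPA in KO skin alone, but the difference between genotypes did not pass the test for any of the 41 genes. The KO minus WT difference of the FA response was -1.0 ± 0.41 log2 for Pole2 (edgeR adjusted p = 1), -0.63 ± 0.30 for Prim1 and -0.59 ± 0.32 for Hells. That edgeR test called 0 of the 41 genes and 0% of all genes, with 1 of the 41 at an unadjusted p under 0.05, and DESeq2 and limma-voom called 0 of the 41. For the 4 genes called over both genotypes the same difference was 0.08 ± 0.29 (E2f2), 0.12 ± 0.27 (Rfc2), -0.01 ± 0.25 (Mcm5) and 0.16 ± 0.25 (Uhrf1). The spread of each gene came from the vehicle pairs, with 2 residual degrees of freedom, and edgeR drew it towards the trend over all genes. With so few degrees of freedom, modest differences between genotypes were not detectable in these libraries.

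**Figure D4:**
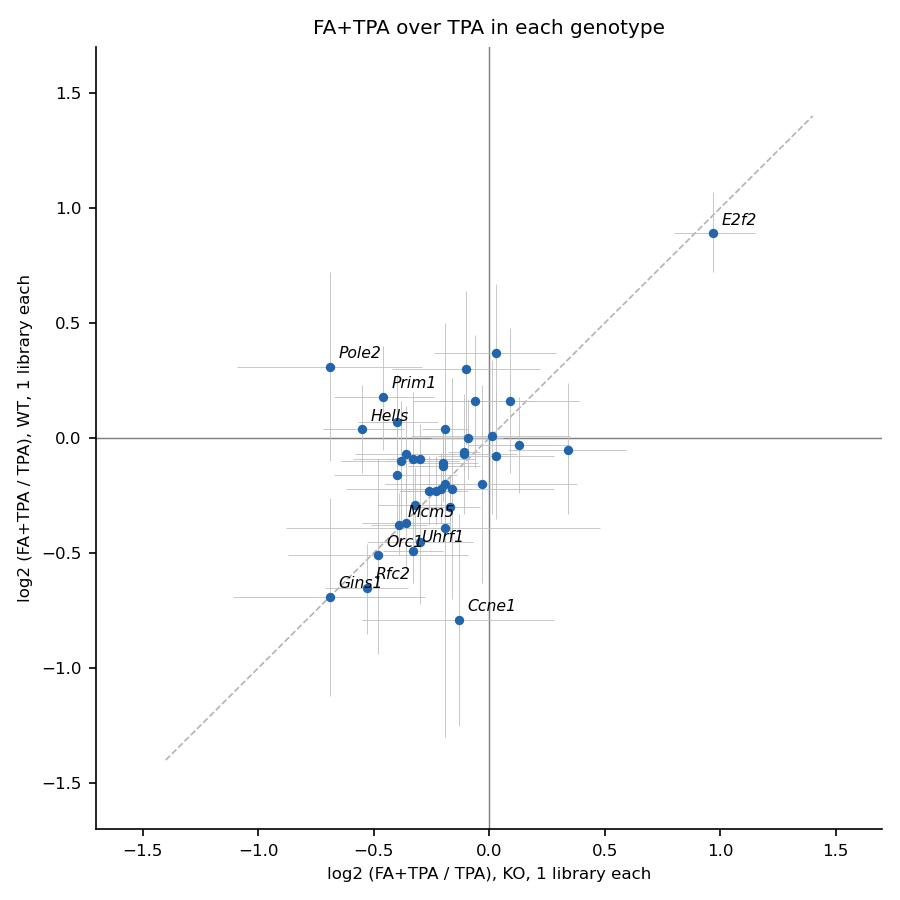
Log2 ratio of FA+TPA to TPA for each of the 41 genes in KO (across) and WT (up), 1 library each, with bars for 95% counting intervals and a dashed line of equal ratios. E2f2 stands alone at the upper right (0.97 and 0.89), Rfc2 and Gins1 lie at the lower left near the line, and Pole2 has the widest split (-0.69 and 0.31).

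KO and WT skin were compared to ask whether loss of REDD1 moves these genes. Over all treatments none of the 41 genes passed the edgeR test (1.98% of all genes rose and 1.60% fell), with a median of -0.02 log2. At an unadjusted p under 0.05, 1 was lower, Tyms (-0.26 ± 0.09, adjusted p = 0.157). In vehicle skin, with 2 libraries per genotype, none passed either (1.44% of all genes rose and 0.727% fell), and 2 were lower at an unadjusted p under 0.05. These were Orc1 (-0.72 ± 0.23, adjusted p = 0.203) and Pold1, the catalytic subunit of polymerase delta (-0.43 ± 0.18, adjusted p = 0.372). Pold1 was at 18.6 and 21.4 CPM in KO vehicle skin and at 31.7 and 22.4 in WT vehicle skin. Without WT vehicle replicate 2, Pold1 (-0.66, adjusted p = 0.00426) was called lower and Pcna (0.58, adjusted p = 0.0152) higher. DESeq2 and limma-voom called 0 of the 41 in both comparisons. The KO minus WT difference of the TPA response was called for 0 of the 41 and for 0.00519% of all genes, with 0 of the 41 at an unadjusted p under 0.05 and 0 called by DESeq2 or limma-voom. E2f2 had the smallest p there, at -0.56 ± 0.25 log2 (adjusted p = 0.953).

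Lists of other cell cycle genes gave a scale for these changes. The shares of all genes called in each comparison are those given above. All 30 mitosis genes rose with TPA, with a median of 2.16 log2, against 0.41 for the replication and G1/S genes. Ube2c, which with the anaphase-promoting complex tags mitotic proteins, rose by 3.01 ± 0.23, the mitotic kinase Plk1 by 2.75 ± 0.17 and the centromeric histone Cenpa by 2.50 ± 0.19. With FA+TPA against TPA 0 of the 30 passed the edgeR test (2 lower at an unadjusted p under 0.05; 0 called by DESeq2 or limma-voom), with a median of -0.28 and 29 of 30 below 0. In KO against WT vehicle skin 3 of the 30 mitosis genes rose, Cenpe (0.79 ± 0.15, adjusted p = 0.0299), Kif11 (0.62 ± 0.13) and Bub1b (0.68 ± 0.15). That count was 0 in limma-voom and without KO vehicle replicate 2, 10 without WT vehicle replicate 1 and 13 without WT vehicle replicate 2. It was 6 with no filter on low counts and 1 with a minimum count of 50, and in the vehicle libraries alone it was 6 with the replicate block and 1 without it. The 30 fold changes were all above 0 there with a median of 0.54, while the 41 replication and G1/S genes had a median of -0.05. In treated skin, with 1 library each, the KO over WT ratios of the mitosis genes differed from this. With TPA their median was 0 log2, with 14 above 0 and 16 below. With FA+TPA it was -0.25, with 27 of 30 below 0. Over all treatments 0 of the 30 passed the edgeR test of KO against WT (median 0.18). The summed mitosis CPM was 553 and 566 in KO vehicle skin and 377 and 418 in WT vehicle skin, while the summed replication and G1/S CPM of 934 and 947 in KO lay just below the 948 and 973 of WT. Of 40 other replication genes, 25 rose with TPA (median 0.46), with Asf1b, a histone chaperone, at 1.77 ± 0.17, Ticrr, needed to activate the helicase, at 1.48 ± 0.13 and Dbf4, the activator of the Cdc7 kinase, at 1.47 ± 0.12. None of those 40 passed with FA+TPA against TPA (edgeR; 10 lower at an unadjusted p under 0.05, median -0.22), and 1 was called lower under 5 other settings.

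Of 29 cyclin D, CDK, RB and CDK inhibitor genes tested, 13 rose and 7 fell with TPA. Over all genes 23.2% rose and 22.8% fell, so the count that fell is near the share over all genes. Ccna2, encoding cyclin A2, rose by 1.99 ± 0.13, the repressor E2f7 by 1.86 ± 0.14 and Mybl2, a late G1/S activator, by 1.53 ± 0.14. Ccnd2, encoding cyclin D2, fell by 1.44 on the log2 scale (SE 0.11). With FA+TPA against TPA 4 rose and 3 fell, against 5.71% and 4.31% of all genes. E2f7 was at 10.1 (KO) and 11.2 (WT) CPM with FA+TPA, against 18.2 (KO) and 23.4 (WT) with TPA (-0.96 ± 0.17, adjusted p = 0.00474). E2f7 therefore went down where E2f2 went up. Cdk6, the cyclin D kinase, was at 165 (KO) and 148 (WT) CPM with FA+TPA, against 244 (KO) and 281 (WT) with TPA (-0.75 ± 0.11, adjusted p = 0.00189). Cdkn2d, a CDK inhibitor of the INK4 group, fell too (-0.53 ± 0.14, adjusted p = 0.0405). Ccnd2 (0.52 ± 0.12, adjusted p = 0.0218) and Tfdp2, an E2F partner (0.41 ± 0.11, adjusted p = 0.0451), rose. Cdkn1b, encoding the inhibitor p27, also rose (0.40 ± 0.10, adjusted p = 0.0372). Cdkn1c, encoding a related inhibitor, was called (adjusted p = 0.036) on 8 (KO) and 7 (WT) counts with FA+TPA, against 2 (KO) and 1 (WT) with TPA and 8 to 12 in vehicle skin, too few for a firm fold. The count of 4 that rose fell to 1 in DESeq2 and with 1 mean per group, and to 2 with no filter. Leaving out any 1 treated library, or either KO vehicle library, also ended most or all of these calls. The count of 3 that fell became 1 without the KO FA+TPA, WT FA+TPA or WT TPA library.

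**Figure D5:**
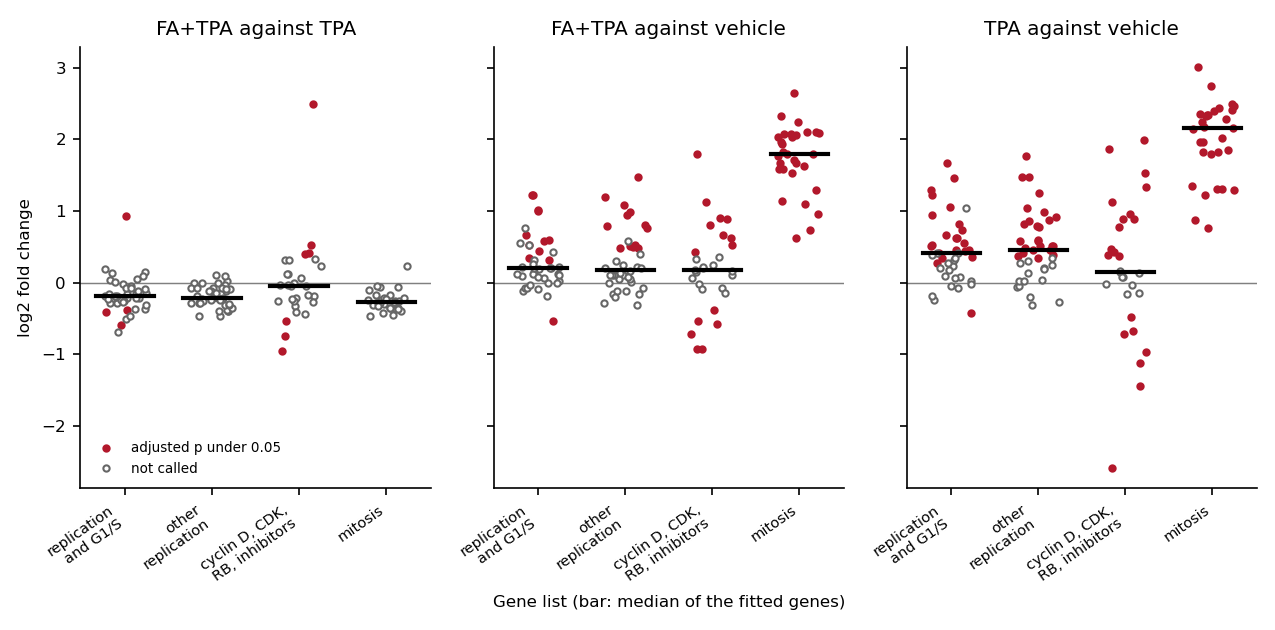
Fitted log2 fold change of each tested gene (points; filled where the adjusted p was under 0.05) of 4 lists, with 1 panel for each comparison of treatments and bars for list medians. The mitosis genes lie far above the replication and G1/S genes in both comparisons with vehicle (medians 2.16 and 0.41 with TPA), while the 4 medians lie between -0.28 and -0.04 in FA+TPA against TPA, where single genes reach from -0.96 to 2.50.

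Markers of several cell types, keratinocytes among them, moved with the same treatments. The summed CPM of 6 neutrophil markers was 209 (KO) and 115 (WT) with FA+TPA, 434 (KO) and 979 (WT) with TPA, and 35.4 to 46.8 in vehicle skin. S100a8 and S100a9 made up most of the treated sums, and Mmp9 most of the vehicle sums. In vehicle skin Mmp9 was at 31.6 to 34 CPM and Csf3r at 0.136 to 0.396, so the sum need not follow neutrophil number. With TPA, S100a8, S100a9 and Mmp9 were higher in WT. Csf3r (34.8 CPM in KO, 11.9 in WT) and Cxcr2 (36.3 in KO, 34.9 in WT) were higher in KO. Of the 5 neutrophil markers tested, all rose with TPA and 4 fell with FA+TPA against TPA, while Ly6g was at 0 in 7 libraries. The sum of 7 macrophage markers was 153 (KO) and 123 (WT) with FA+TPA, 290 (KO) and 108 (WT) with TPA, and 107 to 123 in vehicle skin. Its members went opposite ways. Mrc1 was at 21.5 (KO) and 15.1 (WT) CPM with FA+TPA, against 186 (KO) and 42.4 (WT) with TPA (-2.44 log2, adjusted p = 0.00645), while C1qa (1.22, adjusted p = 0.00175) and C1qc (1.04, adjusted p = 0.0169) rose with FA+TPA against TPA. The sum of 7 keratinocyte markers was 36400 (KO) and 39900 (WT) with FA+TPA, 24900 (KO) and 29400 (WT) with TPA, and 26700 to 32200 in vehicle skin. Krt14 rose (1.58) and Krt10 (-1.84) and Trp63 (-0.45) fell with TPA. Krt10 (1.89, adjusted p = 7.31e-05), Krt1 (1.12, adjusted p = 0.00207) and Krt5 (0.42, adjusted p = 0.0412) rose with FA+TPA against TPA. Of the other lists, Langerhans cell markers summed to 540 (KO) and 422 (WT) with FA+TPA, 621 (KO) and 587 (WT) with TPA, and 759 to 866 in vehicle skin. With TPA 4 of these 5 markers fell (Cd207 -1.45, H2-Aa -0.88, H2-Ab1 -0.86 and Cd74 -0.73) and Epcam rose (0.81). Fibroblast markers summed to 349 (KO) and 263 (WT) with FA+TPA, 386 (KO) and 513 (WT) with TPA, and 621 to 1170 in vehicle skin. Collagen genes made up most of each sum. With TPA 3 of the 6 fell (Col1a1 -1.13, Col1a2 -0.96 and Col3a1 -0.86), while Pdgfra (2.04) and Dcn (1.57) rose. T cell markers summed to 45.8 to 76.2 over all libraries, yet 4 of 5 fell with TPA (Cd3e -1.46, Cd3d -1.66, Cd3g -1.75 and Trdc -2.66) and Thy1 rose (1.10). Cd3e also fell with FA+TPA against TPA (-0.70, adjusted p = 0.0451). Endothelial markers summed to 10.3 to 17.1, and with TPA 3 of 4 rose (1.27 to 1.61) and Vwf fell (-1.13). Hair matrix markers summed to 49.4 (KO) and 59.7 (WT) with FA+TPA, 34.1 (KO) and 36.6 (WT) with TPA, and 34.2 to 38.4 in vehicle skin. Dlx3 made up most of each sum, at 44.7 (KO) and 53.8 (WT) CPM with FA+TPA. Its level was higher with FA+TPA than with TPA (0.69, edgeR adjusted p = 0.00287). Msx2 (0.64) and Hoxc13 (-0.45) did not pass that test, and Msx2 fell with TPA against vehicle (-0.79). Krt35 lay at 0 to 0.141 CPM and was not tested. Skeletal muscle markers summed to 96.6 (KO) and 86.2 (WT) with FA+TPA, 25.8 (KO) and 14 (WT) with TPA, and 3.1 to 146 in vehicle skin. Their 4 fitted differences between FA+TPA and TPA were 1.93 to 3.00 log2, with edgeR adjusted p from 0.0583 to 0.217. The part of these cells in the changes of replication genes was not tested.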

How the data were processed

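RNA sequencing of total RNA gave 8 libraries. Per the submitters' processing notes, Trim Galore, STAR, HTSeq and the mm10 build were used; versions, annotation release and strand setting are not given in these sources. The authors deposited raw counts per Ensembl gene for each library. Symbols were matched through a gene name table (54079 of 54232 identifiers), and positions and overlaps come from GENCODE M21. Groups come from the sample titles.

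The tests on counts were edgeR 4.0.16 (R 4.3.3) quasi-likelihood F tests with TMM normalisation and filterByExpr by treatment (minimum count 10), with Benjamini-Hochberg adjustment over all 19251 genes tested, at 0.05. Treatment comparisons and KO against WT over all treatments used genotype plus treatment (4 residual degrees of freedom). KO against WT in vehicle skin and the differences of responses used 1 mean per group (2 residual degrees of freedom, which the vehicle pairs give). SE is the absolute log2 fold change over the square root of F. Vehicle replicates differed by more than sampling noise (chi-square per degree of freedom 8.98 in KO and 19.34 in WT).

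The 41 genes, the comparison lists and markers were chosen with earlier results of these data known. Values per library are given for genes called between FA+TPA and TPA and for the 2 genes of each role with the smallest p with TPA; Pcna, Gins2, Pole2, Prim1, Hells, Pold1, Cdkn1b, Cenpe, Kif11 and Bub1b were added after their values were seen. Alternatives were other normalisations, filters, limma 3.58.1 voom, DESeq2 1.42.0, 1 mean per group, each library left out, Gm26917 left out and a replicate block; for single genes and comparison lists they were added after seeing the data. Reads of overlapping genes, and of pseudogenes such as that of Pcna, may be split or shared. Intervals and floors cover counting error only.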

Additional observations from a re-analysis of the deposited data

How the results depend on the processing

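The directions of the 4 genes called between FA+TPA and TPA held under every alternative run, and the calls held with RLE normalisation, no filter, a minimum count of 50, Gm26917 removed, limma-voom and DESeq2. Library size alone and 1 mean per group each left 1 gene called lower in place of 3. Leaving out each library gave 0 to 4 genes lower, 0 to 1 higher and medians from -0.25 to -0.16. For TPA against vehicle, leaving out each library gave 14 to 22 higher, 0 to 1 lower and medians from 0.38 to 0.43. For FA+TPA against vehicle it gave 6 to 13 higher, 0 to 1 lower and medians from 0.18 to 0.25. Library size alone, which lowered all genes by 0.226 (TPA) and 0.219 (FA+TPA) log2 against vehicle, gave 12 higher, 3 lower and a median of 0.18 for TPA against vehicle; all genes tested then split into 2846 higher and 6432 lower. It gave 7 higher, 2 lower and a median of -0.02 for FA+TPA against vehicle. For Gins2, the call with TPA ended (0 lower) without a filter, in DESeq2 and with 1 mean per group, and the call with FA+TPA against vehicle ended (0 lower) in DESeq2. With TPA, Rfc5 was also not called in DESeq2 (0.35, adjusted p = 0.0557) or with 1 mean per group (0.34, adjusted p = 0.0524), nor Mcm7 with 1 mean per group (0.28, adjusted p = 0.0563). For the genotype comparisons, library size alone moved the medians to 0.04 (all treatments), 0.26 (difference of TPA responses) and -0.23 (difference of FA responses), and no filter moved the difference of TPA responses to 0.03 (main 0.09). Within genotypes, library size alone gave medians of -0.29 in KO and 0.01 in WT. Leaving out each library gave, for KO against WT vehicle, medians from -0.11 to -0.03 with 0 to 1 higher and 0 to 1 lower, and for the difference of TPA responses medians from 0.00 to 0.09. Replicate numbers did not pair the vehicle libraries (r = -0.06 across genes). With vehicle libraries alone, 0 genes were called higher and 0 lower with the replicate block and without it, and the median was -0.03 in each. For the differences of responses, fits without a treated library that the difference needs could not be made. The causes of these changes were not tested, except that library size alone shifts all genes. Depth limits most the genes with few counts, such as Fen1, Gins1, Orc1, Pole2 and Ccne1.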

Other observations

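Pcna-ps2, a processed pseudogene of Pcna (chr19:9283380-9284160, plus strand, GRCm38), was chosen after its values were seen. It had 0 counts with FA+TPA, 1 with TPA and 1 and 0 with vehicle in KO skin, against 44 with FA+TPA, 37 with TPA and 53 and 54 with vehicle in WT skin, so the genotypes did not overlap. The edgeR test of KO against WT over all treatments gave an adjusted p of 3.33e-05. It did not pass the test with TPA against vehicle (adjusted p = 0.577). Ddit4 lies on another chromosome, and the source of the Pcna-ps2 difference was not tested.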
